A study of Mus musculus with 2 samples.

Results

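The genes described here are 10 transcripts of inflammatory signalling in mouse retinal microglia, the resident macrophages of nervous tissue. They are the cytokines *Tnf*, *Il1a* and *Il1b*, the NF-kB subunits *Nfkb1*, *Nfkb2* and *Rela*, the inhibitors and regulators *Nfkbia*, *Nfkbiz* and *Tnfaip3*, and the inflammasome sensor *Nlrp3*. They were taken by gene symbol from the 13549 genes of the deposited count table, and all 10 were found. The mice carried CD11c-Cre-gfp, a Cre-GFP under the promoter of the integrin subunit CD11c, and Rosa-TDTom, a red reporter that Cre turns on permanently. Cd11c-active cells had both colours (GFP+TdTom+) and Cd11c-lineage cells had the red colour without GFP (GFP-TdTom+). Both were sorted at postnatal day 5 from 1 pool of 8 retinas (4 female and 4 male per the labels), 4041 cells of the first kind and 5441 of the second, and each gave 1 bulk RNA library. Both groups thus share the transgenes, and the labels name no treatment besides the sort.

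NF-kB factors are dimers of Rel proteins that inhibitors of the IkB family hold in the cytoplasm. Signals from TNF and IL-1 receptors activate the IKK kinases, which mark the inhibitors for degradation, and the freed dimers switch on cytokine genes together with the genes of their own inhibitors. In microglia this pathway primes the inflammatory response, and *Nlrp3* and *Il1b* are among the genes it primes.

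With 1 library per group there was no replicate error, so no test of the conditions was possible and no p-value is given. Ratios are Cd11c-active over Cd11c-lineage in counts per 1000000 reads (CPM) scaled by TMM, a method that sets the bulk of genes to equal levels. Intervals are 95% counting intervals, which cover the sampling of independent reads only. The wider spread between the libraries is given by the middle 95% of the ratios of the 500 genes nearest in reads. The Cd11c-active library held 12943998 reads and the Cd11c-lineage library 13402625.

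The 10 genes differed by less than 2-fold between the libraries. Their log2 ratios ran from -0.20 for *Nfkb1* to 0.45 for *Tnf*, and 0 of 10 reached 2-fold (an absolute log2 ratio of 1). Of the 13037 genes considered, those with 20 or more reads summed over the libraries, 44.9% were past 2-fold. Most of those had few reads, so the closer reference is the 2309 genes with reads in the range of the 10 (2125 to 13072), of which 3.9% were past 2-fold, a share so low that 0 of 10 is not particular to these genes. The counting intervals of 9 of the 10 left out 0, and the widest differences were 1.36-fold for *Tnf*, 1.31-fold for *Nfkbia* and 1.30-fold for *Nfkb2*. At a log2 ratio of 0.5 the count was again 0 of 10, against 27.9% of these 2309 genes and 64.2% of all 13037. The median log2 ratio of the 10 was 0.12, beside -0.021 for the 2309 genes and 0.0052 for all genes considered. All 10 lay inside the middle 95% of the genes nearest to them in reads, as most genes do by construction.

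The direction of so small a difference depended on the scaling. Scaling to library totals instead of TMM moved the ratio of the median gene by -0.14. The ratio was above 0 for 9 of the 10 genes under TMM and for 4 of the 10 under library totals, and the median of the 10 was then -0.019. After removal of a trend with transcript length and GC content 6 of 10 were above 0. *Tnf*, *Nfkb2*, *Nfkbia* and *Tnfaip3* stayed above 0 and *Nfkb1* below 0 under all 6 settings tried. *Il1a*, *Il1b*, *Rela*, *Nfkbiz* and *Nlrp3* changed sign between them.

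**Figure D1:**
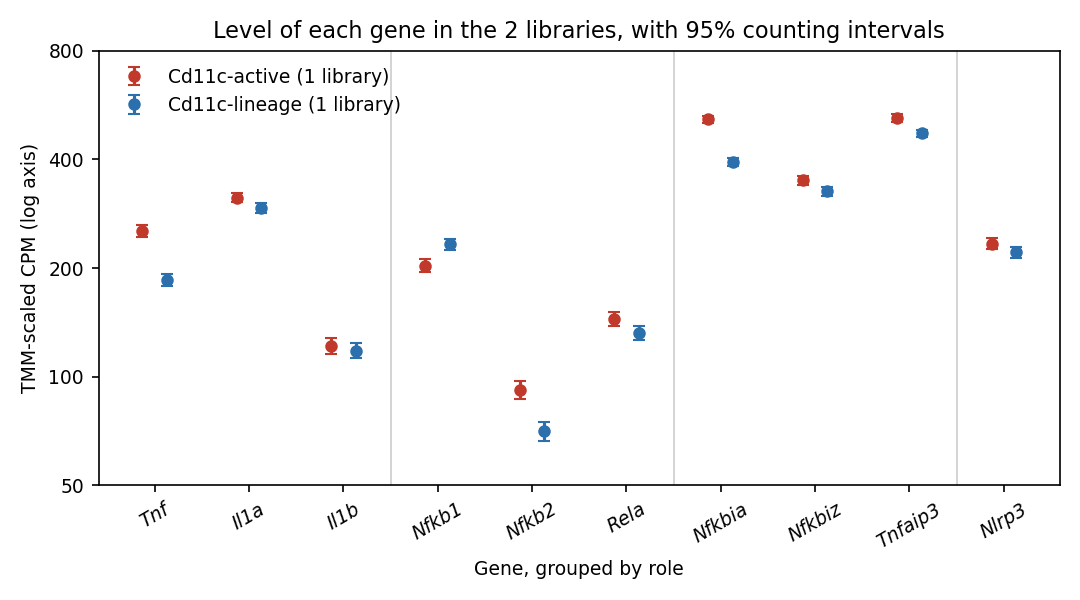
TMM-scaled CPM (log axis) of the 10 genes, grouped by role, in the Cd11c-active library (red) and the Cd11c-lineage library (blue). Bars are 95% counting intervals. The separation is widest for *Tnf* (253 against 186 CPM), and *Nfkb1* is the gene whose Cd11c-lineage value is the higher.

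The DNA just before 3 of these genes is shown because it holds matches to the element through which NF-kB is known to act. The sequences are the 250 bases before 1 annotated start each of *Nfkbia*, *Tnfaip3* and *Nfkb2*, from RefSeq on build GRCm38.p6, 5′ to 3′ on the gene's strand. Capitals mark matches to the NF-kB consensus, which is 10 letters long and was searched on both strands, and the overlapping pair of *Nfkb2* runs together. *Nfkbia* is on the minus strand at chr12:55492648-55492897, *Tnfaip3* on the minus strand at chr10:19015411-19015660 and *Nfkb2* on the plus strand at chr19:46304487-46304736.
Nfkbia: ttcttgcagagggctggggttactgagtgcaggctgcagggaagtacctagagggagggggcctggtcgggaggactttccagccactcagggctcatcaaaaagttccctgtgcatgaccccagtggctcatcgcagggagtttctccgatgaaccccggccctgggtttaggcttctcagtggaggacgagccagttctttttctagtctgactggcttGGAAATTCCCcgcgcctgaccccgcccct
Tnfaip3: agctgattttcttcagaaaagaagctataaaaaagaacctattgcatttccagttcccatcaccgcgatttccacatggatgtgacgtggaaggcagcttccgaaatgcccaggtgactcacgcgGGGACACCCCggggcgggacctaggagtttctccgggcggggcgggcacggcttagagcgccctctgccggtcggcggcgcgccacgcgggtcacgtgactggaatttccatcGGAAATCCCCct
Nfkb2: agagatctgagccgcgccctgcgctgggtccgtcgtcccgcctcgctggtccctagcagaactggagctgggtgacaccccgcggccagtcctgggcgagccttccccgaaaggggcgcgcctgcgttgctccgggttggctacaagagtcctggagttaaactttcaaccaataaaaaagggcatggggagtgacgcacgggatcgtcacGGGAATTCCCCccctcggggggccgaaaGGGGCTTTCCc

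The match of *Nfkbia* began 29 bases before the start. Those of *Tnfaip3* began 125 and 12 bases before it, and the 3 of *Nfkb2* 39, 38 and 11 bases before it. The promoter table held 12 starts for 8 of the 10 genes, and 6 of these starts, in 4 genes, had a match in the 250 bases. *Nfkbia* had 1 start in the table. The second start of *Tnfaip3*, not printed, had 0 matches, and the 2 other starts of *Nfkb2*, not printed, had 1 match each. The other gene with a match was *Nlrp3*, with 1 match at 1 of its 2 starts. A match was present in 7.25% of all 32851 promoters given there. A match is a description of the letters and does not show binding. The 3 genes printed had log2 ratios of 0.39, 0.14 and 0.38 and *Nlrp3* 0.08, and those of *Tnf*, *Il1a*, *Il1b* and *Rela*, with no match in their windows, ran from 0.04 to 0.45.

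*Tnf* encodes tumour necrosis factor, a cytokine released by activated macrophages. The Cd11c-active library gave it 3128 reads and the Cd11c-lineage library 2608, at 253 and 186 CPM. The higher value was in Cd11c-active, with a log2 ratio of 0.45 (counting interval 0.37 to 0.52). This was the highest ratio of the 10 under TMM; after removal of the length and GC trend *Tnfaip3* was higher. The middle 95% of the genes nearest in reads ran from -0.82 to 0.92, and 71.6% of them were closer to equality than *Tnf*. Over the 6 settings its ratio lay between 0.19 and 0.45, lowest after removal of the length and GC trend, and its log2 fold change in the authors' deposited table is 0.31.

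Under TMM the interleukin 1 cytokines were closer to equality. *Il1a* encodes the form that is active without processing. It had 3872 and 4119 reads, or 314 and 293 CPM, and a log2 ratio of 0.10 (0.03 to 0.16). *Il1b* encodes the form that caspase-1 cuts. It had 1502 and 1660 reads, or 122 and 118 CPM, and a log2 ratio of 0.04 (-0.06 to 0.14). This interval was the only one of the 10 that held 0 under TMM. After removal of the length and GC trend *Il1b* was at -0.23, farther from equality than *Tnf* at 0.19, and *Il1a* at -0.02. The 3 cytokines together had 8502 and 8387 reads, a log2 ratio of 0.21 (0.16 to 0.25).

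Levels of different genes were compared per kilobase of the longest annotated transcript. *Il1a* stood at 159 CPM per kilobase for Cd11c-active against 149 for Cd11c-lineage, *Tnf* at 155 and 113, and *Il1b* at 89.7 and 87.1. *Il1a* was therefore 1.77 times *Il1b* in Cd11c-active and 1.70 times in Cd11c-lineage, a log2 difference between libraries of 0.06 (-0.06 to 0.17). *Tnf* was 1.72 times *Il1b* in Cd11c-active and 1.30 times in Cd11c-lineage, a log2 difference of 0.41 (0.28 to 0.53). After removal of the length and GC trend these differences were 0.21 and 0.41, the first outside its counting interval. Such ratios within a library do not depend on the library scaling but do depend on this trend, and 8 pairs were computed.

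Of the subunits, *Nfkb1* and *Nfkb2* differed in opposite directions. *Nfkb1* encodes the precursor of a DNA-binding subunit of the classical dimer. Its 2508 Cd11c-active reads stood against 3273 of Cd11c-lineage, at 203 and 233 CPM, with a log2 ratio of -0.20 (-0.27 to -0.12). It was the one gene of the 10 lower in Cd11c-active under TMM. *Nfkb2* encodes the precursor of the partner of RelB in the alternative pathway. It had 1134 and 991 reads, or 91.8 and 70.5 CPM, and a log2 ratio of 0.38 (0.26 to 0.51). After removal of the length and GC trend the 2 ratios were -0.11 and 0.10. The genes nearest to *Nfkb2* in reads had the widest spread met by any of the 10, -1.16 to 1.19.

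*Rela*, the subunit with the activation domain of the classical dimer, had 1786 and 1854 reads, or 145 and 132 CPM. Its log2 ratio was 0.13 (0.04 to 0.23) under TMM, -0.004 in the authors' deposited table and -0.20 after removal of the length and GC trend. Per kilobase *Nfkb1* was 2.05 times *Nfkb2* in Cd11c-active and 3.06 times in Cd11c-lineage, a log2 difference of -0.58 (-0.72 to -0.43). *Nfkb1* was 0.919 times *Rela* in Cd11c-active and 1.16 times in Cd11c-lineage, a log2 difference of -0.33 (-0.45 to -0.21). After removal of the length and GC trend these log2 differences were -0.21 and 0.09, so the second turned its direction. The order of *Nfkb1* and *Rela* within each library was computed only without that removal. The 3 subunits summed to 440 and 435 CPM, a log2 ratio of 0.01 (-0.04 to 0.07).

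The inhibitors had the most reads of the 10, without regard to transcript length. *Nfkbia* encodes IkB-alpha, the inhibitor that NF-kB resynthesises first after activation. Its 6372 Cd11c-active reads stood against 5537 of Cd11c-lineage, at 516 and 394 CPM, with a log2 ratio of 0.39 (0.34 to 0.44). The genes nearest in reads ran from -0.68 to 0.77, and 71.2% of them were closer to equality. The value was 0.10 after removal of the length and GC trend and 0.25 under library totals.

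*Tnfaip3* encodes A20, a ubiquitin-editing enzyme that shuts off signalling to IKK. It had 6436 and 6636 reads, or 521 and 472 CPM, and a log2 ratio of 0.14 (0.09 to 0.19), which was 0.01 under library totals and 0.28, the highest of the 10, after removal of the length and GC trend. *Nfkbiz* encodes a nuclear IkB protein that adjusts transcription of a subset of NF-kB targets. It had 4324 and 4586 reads, or 350 and 326 CPM, and a log2 ratio of 0.10 (0.04 to 0.16). Together the 3 genes had 17132 and 16759 reads, a log2 ratio of 0.22 (0.19 to 0.25).

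Per kilobase *Nfkbia* had the highest level of the 10 in both libraries, 327 and 250 CPM per kilobase. *Il1a*, *Tnf*, *Il1b*, *Nfkbiz* and *Tnfaip3* followed in that order in both, and *Nfkb2* was last at 23.9 and 18.3. In Cd11c-active *Nlrp3*, *Rela* and *Nfkb1* followed *Tnfaip3*, in that order. In Cd11c-lineage the order was *Nfkb1*, *Nlrp3* and *Rela*. Those 3 genes spanned 49.0 to 58.1 in Cd11c-active and 48.6 to 56.1 in Cd11c-lineage, so their order rests on small differences that have no replicate error. The same holds for *Il1a* and *Tnf* in Cd11c-active, where *Il1a* was 1.03 times *Tnf*, against 1.31 times in Cd11c-lineage, a log2 difference of -0.35 (-0.45 to -0.25) and of -0.21 after removal of the length and GC trend. It holds too for *Nfkbiz* and *Tnfaip3*, at 85.1 and 84.1 in Cd11c-active and 79.3 and 76.2 in Cd11c-lineage. *Nfkbia* was 6.14 times *Rela* in Cd11c-active and 5.14 times in Cd11c-lineage, a log2 difference of 0.26 (0.15 to 0.36), and 0.30 after removal of the length and GC trend. Against *Nfkb1* the log2 difference of *Nfkbia* was 0.59 (0.50 to 0.68) and fell to 0.21 after that removal. Against *Tnfaip3* it was 0.25 (0.18 to 0.32) and turned to -0.17.

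*Nlrp3* encodes the sensor that assembles the inflammasome on which caspase-1 is activated. Reads numbered 2886 for Cd11c-active against 3110 for Cd11c-lineage, at 234 and 221 CPM, with a log2 ratio of 0.08 (0.01 to 0.15). Of the genes nearest in reads, 15.0% were closer to equality. In the authors' deposited table its log2 fold change is just under 0, at -0.06, as is that of *Il1b*, at -0.09.

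**Figure D2:**
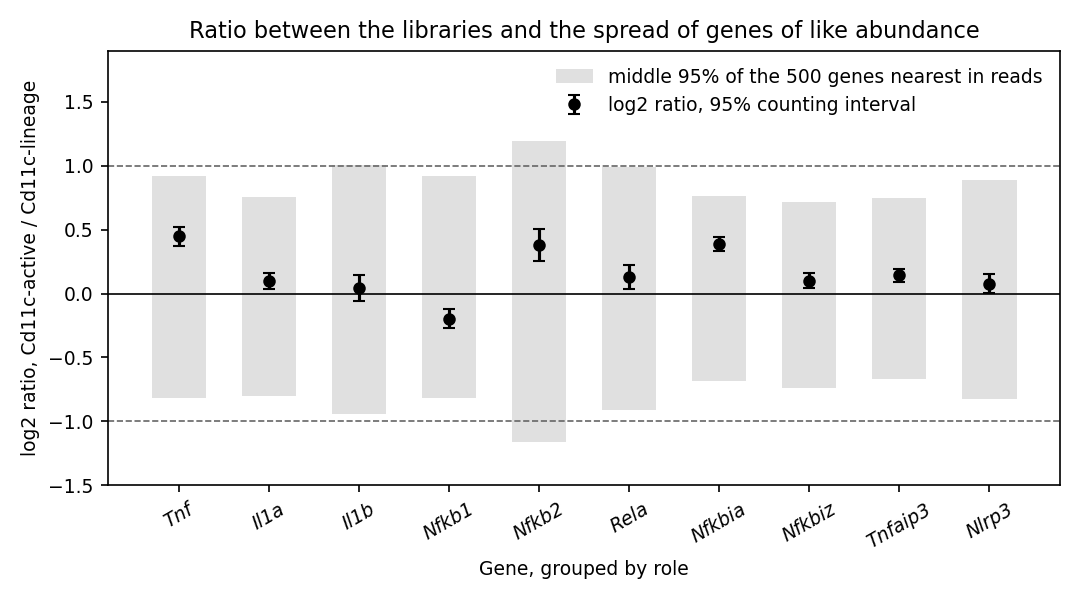
Log2 ratio of each of the 10 genes (points, with 95% counting intervals) and the middle 95% of the ratios of the 500 genes nearest to it in reads (grey bars). Dashed lines mark 2-fold. Every point lies inside its grey bar and between the dashed lines.

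The 10 genes were all abundant. Their median was 5888.5 reads over both libraries, against 524 for all genes considered. *Nfkb2*, the least abundant, had more reads than 81.1% of the listed genes, and *Tnfaip3*, the most abundant, more than 98.2%. The fewest reads of any of the 10 in 1 library were the 991 of *Nfkb2* in Cd11c-lineage. Without molecular identifiers the reads do not give the number of RNA molecules sampled.

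**Figure D3:**
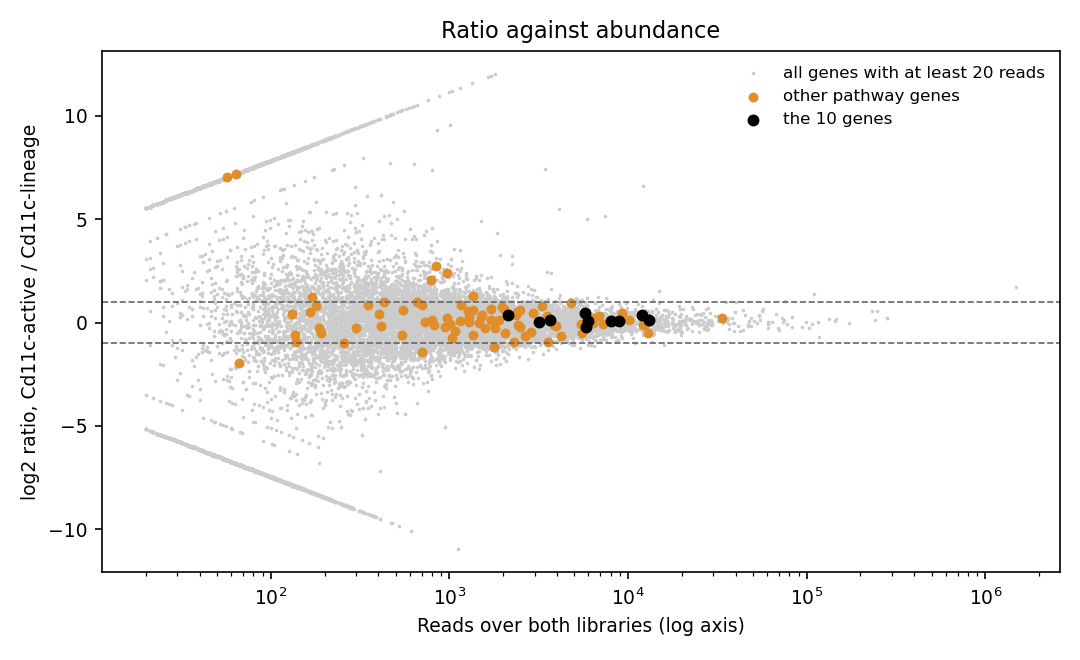
Log2 ratio against reads over both libraries (log axis) for all genes with at least 20 reads (grey), the other pathway genes (orange) and the 10 genes (black). The grey spread narrows with abundance, and the 10 genes sit between 2125 and 13072 reads, where 3.9% of genes are past 2-fold (dashed lines).

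The rest of the pathway was described with a list of 92 other genes in 10 roles. Of these, 83 were in the table, 81 had at least 20 reads, and the other 9 were not analysed here. At 2-fold 9 were higher in Cd11c-active and 3 lower, or 14.8% of the 81, against 23.3% of all genes considered higher and 21.6% lower. The 81 had a median of 1360 reads over both libraries, more than the 524 of all genes considered. Among the 70 with at least 200 reads, 6 were higher and 2 lower, or 11.4%, against 26.3% of all 8951 genes with at least 200 reads. Under library totals the split of the 81 was 7 higher and 7 lower, and after removal of the length and GC trend 6 higher and 5 lower. The median log2 ratio of the 81 was 0.13 under TMM and -0.0076 under library totals.

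In bulk RNA a larger share of cells of a type and more RNA per cell cannot be told apart, and the libraries differed in markers of other cells. All 8 endothelial markers were past 2-fold higher in Cd11c-active, with 646 against 73.7 summed CPM. *Cldn5*, *Flt1*, *Tek*, *Esam* and *Plvap* had 0 reads in Cd11c-lineage, where *Cdh5*, *Kdr* and *Pecam1* had 201, 311 and 523. The 8 microglial markers summed to 20150 and 19469 CPM, and 0 of 8 were past 2-fold. All 4 border macrophage markers analysed were lower in Cd11c-active (21.2 against 128 CPM), *Cd163*, *Lyve1* and *F13a1* with 0 reads there. Of 5 monocyte and neutrophil markers analysed, *S100a8*, *S100a9* and *Plac8* had 0 reads in Cd11c-active, *Ccr2* had 0 in Cd11c-lineage, and *Fn1* carried the sum of 374 against 173 CPM. Of 10 retinal neuron markers analysed 5 were lower and 1 higher in Cd11c-active (130 against 247 CPM), with *Pdc* at 0 reads there. Of the 5 Muller glia and astrocyte markers analysed, *Glul* made up most of the summed 2431 and 2487 CPM (2249 and 2369). *Slc1a3* was lower in Cd11c-active (73 against 642 reads), *Vim* was higher (2069 against 1005), *Rlbp1* had 94 against 0 reads, and *Sox2*, under the minimum, 0 against 8. The part of these cells in the values of the pathway genes was not tested.

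Genes that respond to handling of cells were abundant in both libraries. The 18 immediate early and dissociation genes summed to 13869 CPM for Cd11c-active against 11813 for Cd11c-lineage, a log2 ratio of 0.23 (0.22 to 0.24), and 1 of them, *Jund*, was past 2-fold. *Fos* alone had 28466 and 25815 reads. *Tnf*, *Il1b*, *Nfkbia* and *Nfkbiz* are also known to respond to dissociation of tissue. The part of handling in the levels of the 10 genes was not tested.

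Among other cytokines, *Tgfb1*, the immunoregulatory transforming growth factor, had 2995 and 1783 reads and a log2 ratio of 0.93 (0.85 to 1.02), short of 2-fold. *Tnfsf13b*, the B-cell activating factor, had 109 and 70 reads. Of the 9 receptors analysed 7 had ratios above 0 and 2 below, with a median of 0.77. At 2-fold 3 of the 9 were higher, against 23.3% of all genes considered. Of the 6 receptors with at least 200 reads, 1 was past 2-fold. The 9 summed to 1596 and 1602 CPM, a log2 ratio of -0.006 (-0.03 to 0.02). *Tnfrsf1a*, the first TNF receptor, had 1995 and 1283 reads and a log2 ratio of 0.82 (0.72 to 0.93), and *Il10rb* was at 0.77. *Tnfrsf1b*, the second TNF receptor, had 5429 and 6763 reads and a log2 ratio of -0.13 (-0.18 to -0.08). *Il10ra*, which binds the anti-inflammatory IL-10, had 4935 and 7962 reads and a log2 ratio of -0.50 (-0.56 to -0.45). *Ltbr*, the lymphotoxin beta receptor that feeds the alternative pathway, had 919 and 435 reads and was past 2-fold at 1.26 (1.10 to 1.43), inside the -1.24 to 1.41 of the genes nearest in reads. Its ratio was 0.86 after removal of the length and GC trend.

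The adaptor and ubiquitin ligase group had the widest range among genes with reads in both libraries. *Sharpin*, a subunit of the linear ubiquitin ligase, had 619 and 166 reads and a log2 ratio of 2.08 (1.84 to 2.34). Its partners *Rnf31* and *Rbck1* had 760 and 1030 reads and 836 and 866 reads, and both were under 2-fold. *Birc2*, a ubiquitin ligase of the TNF receptor complex, was lower in Cd11c-active, with 172 and 532 reads and a log2 ratio of -1.44 (-1.70 to -1.19). *Irak4*, the first kinase below IL-1 and Toll-like receptors, was lower too, with 500 and 1274 reads and -1.16 (-1.31 to -1.01). *Traf5*, a TNF receptor adaptor, had 274 and 154 reads and 1.02 (0.73 to 1.31), and was under 2-fold in 3 of the 6 settings, at 0.88 under library totals, 0.998 with a prior count of 5 and 0.92 after removal of the length and GC trend. The abundant *Tab2* and *Ripk1*, at -0.05 and -0.48, were within 2-fold, and all 4 genes of this group named as past 2-fold lay inside the spread of the genes nearest in reads.

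None of the 7 IKK and related kinases passed 2-fold under TMM. *Ikbke* was closest to it, with 78 and 178 reads and a log2 ratio of -0.9986 (-1.41 to -0.61). The genes nearest to *Ikbke* in reads ran from -8.88 to 9.17. The downward shift of library totals or of DESeq2 size factors carries *Ikbke* past 2-fold. *Tbk1*, a kinase of interferon induction, had 1128 and 2445 reads and a log2 ratio of -0.93 (-1.03 to -0.83). This was outside the -0.89 to 0.97 of the genes nearest in reads, and was -1.07 under library totals. *Map3k8* was at -0.23. The other subunits *Rel* and *Relb* had 2112 and 3394 reads and 427 and 650 reads, with log2 ratios of -0.50 (-0.58 to -0.42) and -0.42 (-0.60 to -0.24), both below 0 under all 6 settings. With *Nfkb1* they were the 3 subunits of 5 with lower values in Cd11c-active under TMM, while *Nfkb2* and *Rela* were higher. The ratio of *Rela* changed sign over the settings, from -0.20 to 0.13.

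Of the other IkB family genes, *Nfkbib*, which encodes IkB-beta, had 420 and 237 reads and a log2 ratio of 1.01 (0.78 to 1.25), which was under 2-fold in 3 of the 6 settings, at 0.87 under library totals, 0.999 with a prior count of 5 and 0.65 after removal of the length and GC trend. *Nfkbid* and *Nfkbil1* were at 0.53 and -0.11. None of the 7 deubiquitinases and A20 partners with at least 20 reads passed 2-fold, with *Tax1bp1* at -0.63 and *Itch* at -0.14. After removal of the length and GC trend *Itch* was at 0.04. None of the 4 mRNA decay regulators passed 2-fold either. *Zfp36*, which encodes the protein that destabilises *Tnf* mRNA, had the most reads of the list, 17070 and 16419, and a log2 ratio of 0.24 (0.21 to 0.27). *Zfp36l1* was at 0.32.

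The inflammasome held the gene of the list with the largest ratio among those with at least 200 reads. *Pycard* encodes ASC, the adaptor through which NLRP3 recruits caspase-1. Reads numbered 720 for Cd11c-active against 121 for Cd11c-lineage, at 58.3 and 8.61 CPM, with a log2 ratio of 2.75 (2.48 to 3.05). This lay outside the -1.83 to 2.53 of the genes nearest in reads, and was between 2.62 and 2.81 over the 6 settings. The other 8 inflammasome genes analysed were under 2-fold, from -0.66 for *Aim2* to 0.85 for *Casp1*, which had 432 and 273 reads and an interval that reached past 2-fold (0.63 to 1.07). *Nek7*, a kinase that binds NLRP3, was at -0.04, and at 0.15 after removal of the length and GC trend. *Txnip* was at -0.07. The difference between *Pycard* and these genes was not tested.

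Of the 14 NF-kB target genes 12 were within 2-fold. *Icam1*, an adhesion molecule, had 5664 and 6750 reads and a log2 ratio of -0.07, and *Cd83*, a marker of activated antigen-presenting cells, 5129 and 4175 reads and 0.48. *Cxcl10*, a chemokine that interferon also induces, had 798 Cd11c-active reads against 174 of Cd11c-lineage, at 64.6 and 12.4 CPM. Its log2 ratio of 2.38 (2.15 to 2.63) lay outside the -1.59 to 2.21 of the genes nearest in reads, and was between 2.24 and 2.38 over the settings. Across all 81 genes, *Pycard*, *Cxcl10* and *Tbk1* were the 3 outside that spread.

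The 4 remaining genes past 2-fold had under 200 reads and were named after their values were seen. *Nos2*, the inducible nitric oxide synthase, had 64 Cd11c-active reads against 0 of Cd11c-lineage, and *Cd40*, a receptor of the TNF family, 57 and 0. Against the 3 reads that a count of 0 allows in a library they were at least 24.3-fold and at least 21.6-fold higher if the 64 and 57 reads are taken as exact. With counting error in those reads too, the lower ends of the 95% counting intervals were 4.26 and 4.09 on the log2 scale. *Il1r1*, the signalling IL-1 receptor, had 115 and 56 reads, and *Irak3*, an inhibitor of IRAK signalling, 12 and 54. All 4 lay inside the spread of the genes nearest in reads, which at so few reads ran from -6.82 to 7.18 around *Cd40* and from -8.34 to 8.65 around *Il1r1*.

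**Figure D4:**
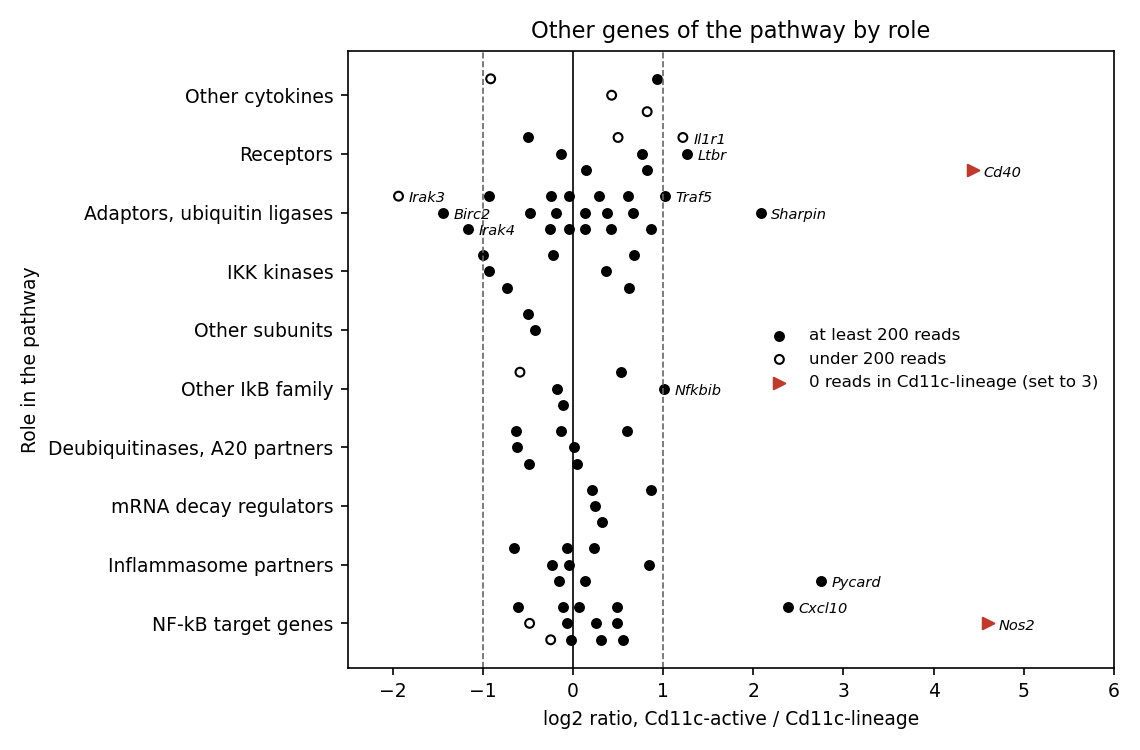
Log2 ratio of the 81 other pathway genes with at least 20 reads, by role. Filled points have at least 200 reads, open points fewer, and triangles are genes with 0 reads in Cd11c-lineage, set against 3 reads there. Dashed lines mark 2-fold, and *Pycard*, *Cxcl10* and *Sharpin* are the filled points farthest to the right.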

How the data were processed

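Total RNA was depleted of ribosomal RNA and made into stranded libraries, per the labels' protocols. What the authors deposited are unnormalized read counts by gene, a log2 fold change and log2 average CPM, per the file headers; the fold change is relative to library totals, from the values. cutadapt 3.5, STAR 2.7.9a, featureCounts 1.6.3, edgeR 4.0.16 and build GRCm39 are named in the submitters' processing notes; the annotation, the strand setting in counting and the handling of duplicates are not given in the sources used here. Reads of overlapping genes may therefore have been shared. Listed genes had at least 6 reads over both libraries. Columns of unmapped samples numbered 0.

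Library sizes were scaled with TMM (edgeR 4.0.16, R 4.3.3). Log2 ratios used a prior count of 0.5, with exact Clopper-Pearson 95% intervals converted to ratios (differences of ratios within a library used the normal approximation to counts), and counts of genes cover those with 20 or more reads in all. Reads carry no molecular identifiers, so intervals and the floor of 3 reads (0.243 CPM in Cd11c-active, 0.214 in Cd11c-lineage) cover counting error only. With 1 library per group neither edgeR nor DESeq2 could be fitted. Alternatives were library totals, DESeq2 1.42.0 size factors, TMM without ribosomal, mitochondrial and 7S genes, a prior count of 5, minimums of 0 and 200 reads, a log2 threshold of 0.5, and removal of a quadratic trend with length and GC content fitted on 4612 genes with at least 1000 reads. Length and GC content came from the longest GENCODE M21 transcript (GRCm38), matched by gene ID for 99.6% of genes. The calculation was tested on simulated data. Python 3.11.15, numpy 2.4.6, scipy 1.17.1, pandas 2.3.3 and matplotlib 3.10.9 were used.

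The genes and lists were chosen with earlier results of these data known. Named beside the 10 were, in each role, the 2 genes with the most reads and every gene past 2-fold with at least 200 reads, 28 in all. The other pathway genes named (*Casp1*, *Aim2*, *Tnfrsf1a*, *Il10rb*, *Rnf31*, *Rbck1*, *Ikbke*, *Nos2*, *Cd40*, *Il1r1* and *Irak3*) were chosen after their values were seen.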

Additional observations from a re-analysis of the deposited data

How the results depend on the processing

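The 10 genes had 0 past 2-fold under all alternatives tried, and their ratios lay between -0.33 and 0.45 over the settings. Their median was -0.019 under library totals and 0.075 after removal of the length and GC trend. The median of the 81 other pathway genes was -0.0076 under library totals, 0.064 after trend removal and 0.10 with a minimum of 200 reads (70 genes). Lower calls among them numbered 7 under library totals and 5 after trend removal, and at a threshold of 0.5 there were 23 higher and 14 lower; with library totals all ratios shift down by construction, and a lower threshold admits more genes. With DESeq2 size factors there were 9 higher and 4 lower. Of 190 alternative values of the 38 single genes named by rule, 138 stayed inside the counting interval of the reported value, 52 left it and 0 called ones changed sign. *Irak4*, *Birc2*, *Sharpin*, *Pycard* and *Cxcl10* were past 2-fold under all 6 settings. *Traf5* and *Nfkbib* were past it under 3 of 6: *Traf5* was at 0.88 with library totals, 0.998 with a prior count of 5 and 0.92 after trend removal, and *Nfkbib* at 0.87, 0.999 and 0.65. *Ltbr* was under it at 0.86 after trend removal, and *Tbk1* past it only with library totals, at -1.07. The cause was not tested. Leaving out a library was not done, since each group had 1. No paired analysis was possible because each group had 1 library.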
